A study of Arabidopsis thaliana with 12 samples.

Results

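Histone genes of Arabidopsis thaliana were followed in the rosette leaf of the ecotype Col-0, with and without heat. They were found by the description in the deposited count table. The description had to contain the word histone in any letter case and neither "ase" nor "chaperone". Many enzymes acting on histones and most chaperones were thereby left out. This rule found 49 of the 23174 genes in the table. By family annotation 44 of them encode core or linker histones, namely 4 replication-type H2A, 2 H2A.X, 3 H2A.Z, 3 H2A.W, 11 H2B, 5 H3.1, 3 H3.3, 4 other H3, 8 H4 and 1 linker histone H1. The other 5 are the ubiquitin ligases HUB1 and HUB2, which attach ubiquitin to H2B, and the genes AT3G25590, AT5G19490 and AT5G50930. The family annotation places the latter genes in none of these families.

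Wild type (WT) was compared with atcyp18-2, a mutant of the cyclophilin gene AT2G36130 whose type of mutation the labels do not state. Plants of both genotypes were grown on soil at 23 °C and were 3 weeks old. Leaves were taken either without heat or after 1 h at 47 °C, which gives 4 groups of 3 libraries, namely WT control, WT heat, atcyp18-2 control and atcyp18-2 heat. No label names a control kept at 23 °C for the same hour or says that replicates came from separate plants, so p-values measure the spread between these libraries, which may be technical.

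Histones pack DNA into nucleosomes, each built around an octamer of H2A, H2B, H3 and H4, and linker histone H1 binds the DNA between them. Replication-type histones and H3.1 are made mainly while DNA is copied, whereas H3.3 and H2A.Z are also placed outside replication, and H2A.W marks heterochromatin. In plants, unlike in animals, the transcripts of replication-type histones carry a poly(A) tail. Replacement of H2A.Z is known in Arabidopsis for its part in temperature responses.

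Libraries held 9075387 to 12493977 reads, of which 2572364 to 4348395 came from nuclear genes and 3134 to 9696 from the 49 histone genes. The targeted gene AT2G36130 had 62 to 99 reads per library in WT control, 11 to 13 in atcyp18-2 control, 48 to 65 in WT heat and 12 to 34 in atcyp18-2 heat. In every group the libraries also parted along 1 common component that held 53.9% of the variance within groups. On it 5 libraries had a negative score and 7 a positive one. Negative were WT control replicates 1 and 2 and WT heat replicate 3, and in the mutant control replicate 1 and heat replicate 2. The chloroplast transcript psbA took 21.96 to 26.74% of reads in the former and 28.73 to 38.65% in the latter.

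Expression is given in CPM, the read count of a gene relative to the size of its library, scaled between libraries by TMM, a method that sets the typical gene equal. Gene-wise tests were edgeR's quasi-likelihood test over 16636 genes, and a call means a p below 0.05 after Benjamini-Hochberg adjustment. Of the 49 histone genes 41 passed the filter on low counts, among them 38 core histones. The 8 that did not pass had at most 22 reads in any library. These were the H2B genes AT1G08170, AT5G02570 and AT3G09480, the H3 genes AT1G75600 and AT1G13370, the linker histone HIS1-3 and the genes AT5G19490 and AT5G50930. HIS1-3 had 1, 8 and 0 reads in WT control, 2, 1 and 5 in WT heat, 6, 0 and 0 in atcyp18-2 control and none in atcyp18-2 heat.

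In WT, 1 h at 47 °C lowered 10 of the 41 fitted histone genes and raised 3. The background over all 16636 genes was 10.3% called lower and 13.2% called higher. The median log2 fold change of the histone genes was -0.26, beside -0.02 over all genes, and 27 of the 41 lay below 0. In atcyp18-2 heat lowered 9 of the 41 and raised 1, against a background of 15.3% lower and 16.9% higher. Their median there was -0.37, beside -0.01 over all genes, and 26 of the 41 lay below 0. Of the genes called lower, 7 were called in both genotypes, which is 70.0% of the WT calls and 77.8% of the mutant calls. HTA7 was the only gene called higher in both. With library totals in place of TMM the median of all genes moved to -0.77 in WT and -0.76 in atcyp18-2, and 22 histone genes were called lower and 0 higher in WT, with 23 lower and 0 higher in atcyp18-2. On that scale 45.1% of all genes were called lower in WT and 44.5% in atcyp18-2, and 4.8% and 6.07% higher. All changes below are therefore relative to the typical gene of the leaf, unless another scale is named. In whole leaves fewer cells of a type and less RNA per cell cannot be told apart. Within WT the count of lower calls was 4 without WT control replicate 2, 3 without WT heat replicate 1 and 4 without WT heat replicate 2. Over all genes the share called lower also went down in these fits, to 6.13%, 6.82% and 6.19%. The count of higher calls in WT was 6 without WT control replicate 3 or without atcyp18-2 control replicate 1, beside 13.3% and 13.4% of all genes. In atcyp18-2 the higher calls numbered 3 without WT control replicate 3, WT heat replicate 3 or atcyp18-2 heat replicate 2, and 2 without atcyp18-2 heat replicate 3. Of all genes 13.6 to 17.3% were called higher in these fits.

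**Figure D1:**
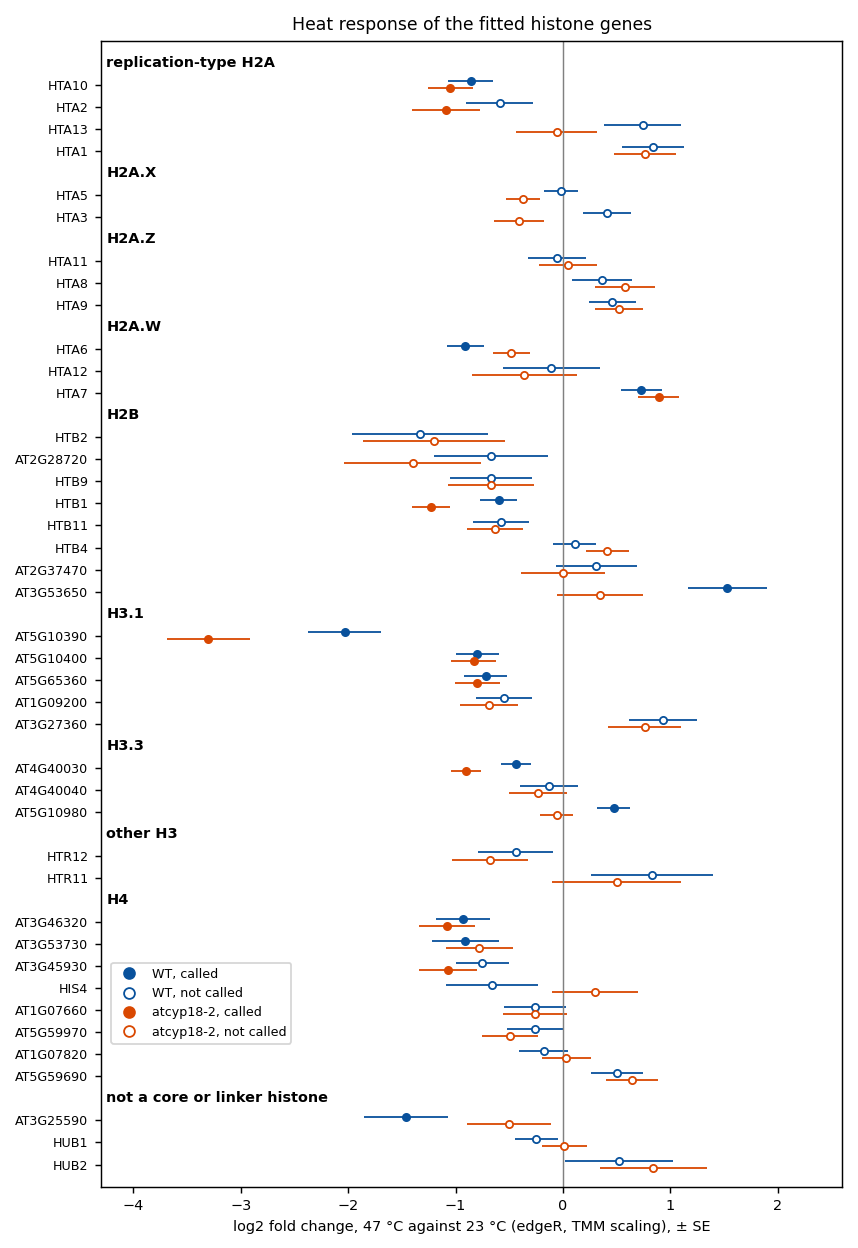
Log2 fold change (± SE) from 23 °C to 47 °C of each of the 41 fitted histone genes, ordered by family, in WT (blue) and atcyp18-2 (orange), with filled points for genes called by edgeR. Most families hold genes on both sides of 0, the H3.1 gene AT5G10390 lies farthest to the left in both genotypes, and with library totals the WT points of HTA7 and AT5G10980 fall to -0.02 and -0.30.

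H3.1 is the form of H3 that is deposited with DNA synthesis, and its 5 genes encode the same protein, so that reads may have been split between these copies in counting. AT5G10390 showed the deepest fall of all fitted histone genes in both genotypes. It measured 5.07, 6.32 and 9.15 CPM in WT control, 2.14, 1.35 and 1.505 in WT heat, 5.27, 7.94 and 9.99 in atcyp18-2 control and 1.15, 0.471 and 0.785 in atcyp18-2 heat. Each heated library lay below each control of its genotype, with 3 to 17 reads after heat and 69 to 116 without. The log2 fold change was -2.03 ± 0.34 in WT (edgeR adjusted p = 0.000893), a 4.09-fold lower level, and -3.30 ± 0.39 in atcyp18-2 (adjusted p = 3.97e-05), a 9.84-fold lower level.

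Its neighbour on the chromosome, the H3.1 gene AT5G10400, fell less. It stood at 10.8 ± 0.288 CPM in WT control and 6.08 ± 1.83 in WT heat (SD, n = 3), a log2 change by -0.80 ± 0.20 (edgeR adjusted p = 0.0121). In atcyp18-2 it went from 10.4 ± 0.662 to 5.84 ± 0.813 CPM (-0.83 ± 0.21, adjusted p = 0.00845). The groups did not overlap in either genotype. The WT call ended without WT heat replicate 1 (-0.68, adjusted p = 0.0593) or 2 (-0.70, adjusted p = 0.0603). Within single libraries AT5G10390 had 47.7 to 82.3 reads for every 100 of AT5G10400 in WT control and 17.5 to 41.7 in WT heat. In atcyp18-2 these numbers were 46.9 to 100 in control and 6.98 to 18.2 after heat. Such a ratio inside a library does not depend on the scaling between libraries.

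The remaining H3.1 genes moved unlike one another. AT5G65360 fell in both genotypes, from 15.0 ± 3.06 to 9.0 ± 1.95 CPM in WT (log2 fold change -0.72 ± 0.20, edgeR adjusted p = 0.0204) and from 12.9 ± 1.31 to 7.41 ± 0.682 in atcyp18-2 (-0.80 ± 0.21, adjusted p = 0.0106). Its WT call ended when WT control replicate 1 or 2 or WT heat replicate 1 or 2 was left out (-0.66 to -0.60, adjusted p = 0.0716 to 0.0981). AT1G09200 had log2 fold changes of -0.55 ± 0.26 in WT and -0.69 ± 0.27 in atcyp18-2, neither called (adjusted p = 0.153 and 0.0658). AT3G27360 lay on the other side of 0, at 7.44, 8.31 and 5.24 CPM in WT control and 9.35, 9.91 and 20.6 in WT heat. Each heated WT library was above each WT control, and the highest was replicate 3. Its log2 fold change of 0.93 ± 0.32 missed the threshold (edgeR adjusted p = 0.0522), as did 0.76 ± 0.34 in atcyp18-2 (adjusted p = 0.106). AT5G10390 had 67.9 to 232 reads for every 100 of AT3G27360 in the 6 controls and 4.05 to 21.7 in the 6 heated libraries.

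H3.3, which replaces H3 outside replication and is enriched on transcribed genes, is encoded by 3 genes that also parted after heat. AT4G40030 measured 82.4, 75.5 and 67.2 CPM in WT control, 56.0, 52.2 and 57.6 in WT heat, 75.0, 63.3 and 79.8 in atcyp18-2 control and 38.2, 42.1 and 36.3 in atcyp18-2 heat. Heated libraries lay below controls in both genotypes without overlap. The log2 fold change was -0.44 ± 0.14 in WT (edgeR adjusted p = 0.0376) and -0.90 ± 0.14 in atcyp18-2 (adjusted p = 0.000376). The WT call ended without any 1 of the WT libraries other than control replicate 3, and without atcyp18-2 control replicate 1 (-0.47 to -0.37, adjusted p = 0.0507 to 0.137).

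AT5G10980 was called in the other direction in WT. It measured 28.9, 22.4 and 21.9 CPM in WT control and 38.5, 29.1 and 33.8 in WT heat, so that the lowest heated library lay just above the highest control. Its log2 fold change was 0.47 ± 0.15 (edgeR adjusted p = 0.0395), but turned to -0.30 with library totals. The call also ended without WT control replicate 2 or 3, WT heat replicate 1 or 3, atcyp18-2 control replicate 2 or 3, or atcyp18-2 heat replicate 1 or 3 (0.37 to 0.48, adjusted p = 0.0513 to 0.155). In atcyp18-2 the gene stood at 26.7 ± 1.52 CPM without heat and 25.6 ± 1.03 after it (-0.06 ± 0.15, adjusted p = 0.791), and it was called lower there with library totals (-0.82, adjusted p = 0.0146). AT4G40040, the neighbour of AT4G40030, was not called in either genotype (-0.13 ± 0.27, adjusted p = 0.772, and -0.23 ± 0.27, adjusted p = 0.554).

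**Figure D2:**
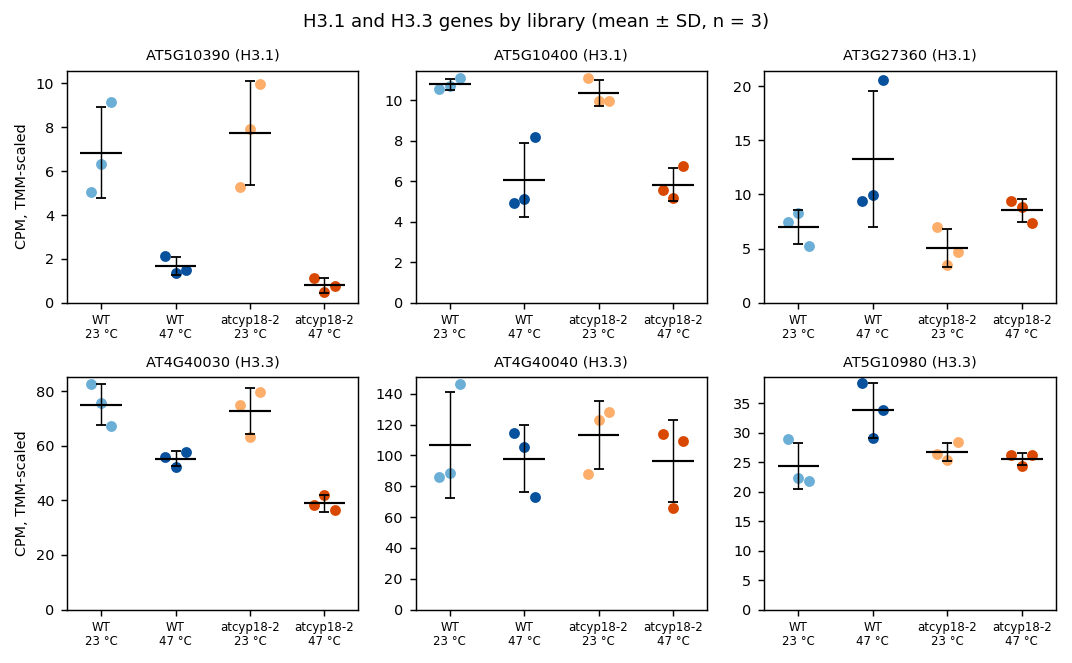
CPM (TMM-scaled) of 3 H3.1 and 3 H3.3 genes in each library, by group, with black lines for the mean and bars for ± SD (n = 3). AT5G10390, AT5G10400 and AT4G40030 are lower in every heated library than in every control of the same genotype, while AT4G40040 overlaps between all groups and spreads more within them.

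Reads of AT4G40030 numbered 286 to 338 for every 100 of AT5G10980 in WT control libraries and 146 to 180 in WT heat. The same ratio was 249 to 285 in atcyp18-2 control and 139 to 173 in atcyp18-2 heat. Both genotypes thus had a lower ratio in each heated library than in any control. Summed over genes, H3.1 had 19.5 to 30.4 reads for every 100 of H3.3 in WT control and 14.5 to 32.7 in WT heat, which overlap. In atcyp18-2 the range was 20.8 to 27.9 in control and 17.4 to 22.8 after heat, which also overlap. These ratios are of read numbers without correction for length, so only their change between libraries can be read. The pairs of single genes were chosen after their values were seen, and no test was made on them.

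The other H3 genes had few reads. HTR12, the centromeric histone CENH3, had 8 to 15 reads in WT control, 3 to 7 in WT heat, 10 to 18 in atcyp18-2 control and 3 to 6 in atcyp18-2 heat. Its log2 fold changes were -0.44 ± 0.35 in WT and -0.68 ± 0.35 in atcyp18-2 (edgeR adjusted p = 0.404 and 0.169). HTR11, which lies next to the H3.1 gene AT5G65360, had 3 to 14 reads in any library and was not called. Its log2 fold changes were 0.83 ± 0.57 and 0.50 ± 0.60.

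H2A is present as replication-type H2A and as the variants H2A.X, H2A.Z and H2A.W. Of the 4 replication-type genes HTA10 fell in both genotypes. It measured 24.5, 24.6 and 35.3 CPM in WT control, 17.0, 15.2 and 14.5 in WT heat, 24.3, 27.6 and 28.8 in atcyp18-2 control and 16.1, 9.08 and 14.0 in atcyp18-2 heat. No heated library reached a control of its genotype. Heat changed HTA10 by a log2 fold of -0.86 ± 0.21 in WT (edgeR adjusted p = 0.0103) and -1.05 ± 0.21 in atcyp18-2 (adjusted p = 0.00239).

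HTA2 was called lower in atcyp18-2, from 11.5 ± 2.80 to 5.44 ± 1.84 CPM (log2 fold change -1.09 ± 0.32, edgeR adjusted p = 0.0212). That call ended without atcyp18-2 control replicate 2 or 3 or atcyp18-2 heat replicate 2 or 3 (-1.02 to -0.94, adjusted p = 0.0608 to 0.0767). In WT its value was -0.59 ± 0.31 (adjusted p = 0.20). HTA1 lay above 0 in both genotypes, at 0.84 ± 0.29 and 0.76 ± 0.29, without a call (adjusted p = 0.0546 and 0.0645). HTA13 was at 0.74 ± 0.36 in WT and -0.06 ± 0.38 in atcyp18-2, not called (adjusted p = 0.162 and 0.925). HTA10 had 460 to 575 reads for every 100 of HTA1 in WT control and 137 to 183 in WT heat, and 362 to 500 and 117 to 133 in atcyp18-2. The ratio of this pair, picked after its values were seen, was thus lower in each of the 6 heated libraries than in any of the 6 controls.

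H2A.Z, the variant linked to temperature-responsive promoters, was not called in either genotype for any of its 3 fitted genes. HTA9 measured 24.8, 26.8 and 39.1 CPM in WT control, 46.2, 47.6 and 31.1 in WT heat, 29.6, 38.6 and 34.7 in atcyp18-2 control and 59.1, 42.0 and 47.0 in atcyp18-2 heat. The WT groups overlapped, while the heated mutant libraries all lay above their controls. Its log2 fold changes were 0.46 ± 0.22 in WT (edgeR adjusted p = 0.152) and 0.52 ± 0.22 in atcyp18-2 (adjusted p = 0.0859). HTA8 was at 0.36 ± 0.28 and 0.58 ± 0.28 (adjusted p = 0.382 and 0.127), with 21 to 46 reads in any library. HTA11 was at -0.06 ± 0.27 and 0.05 ± 0.27 (adjusted p = 0.905 and 0.90). With library totals all 3 genes lay below 0 in both genotypes, from -0.80 to -0.30 in WT and from -0.71 to -0.19 in atcyp18-2, and HTA11 was then called lower in both (adjusted p = 0.00627 and 0.0101).

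Relative to H2A.Z, replication-type H2A was lower in each heated library. By summed CPM, replication-type H2A alone overlapped between control and heat, at 43.4 to 68.2 and 39.4 to 51.7 in WT. In atcyp18-2 it ran from 42.6 to 56.7 in control and from 23.8 to 46.9 after heat. The mean for H2A.Z went from 42.4 to 54.3 CPM in WT and from 46.8 to 63.9 in atcyp18-2. Summed reads of the 4 replication-type genes came to 128, 114 and 124 for every 100 H2A.Z reads in WT control and to 86.5, 70.7 and 94.5 in WT heat. In atcyp18-2 the numbers were 106, 110 and 115 in control and 59.3, 44.3 and 62.7 after heat. Neither genotype overlapped between control and heat, and the heated mutant libraries were the lowest of all. The mean was 83.9 ± 12.1 in WT heat and 55.4 ± 9.79 in atcyp18-2 heat (SD, n = 3). No test was made on this sum over chosen genes.

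H2A.X, whose tail is phosphorylated at DNA breaks, has 2 genes and neither was called. HTA3 measured 5.14, 6.75 and 7.11 CPM in WT control, 9.09, 7.21 and 8.78 in WT heat, 6.39, 7.47 and 5.82 in atcyp18-2 control and 5.92, 3.42 and 5.65 in atcyp18-2 heat. The heated libraries lay above the controls in WT and overlapped them in the mutant. Its log2 fold changes were 0.41 ± 0.22 in WT and -0.41 ± 0.23 in atcyp18-2 (edgeR adjusted p = 0.212 and 0.203). HTA5 was at -0.02 ± 0.16 and -0.37 ± 0.16 (adjusted p = 0.934 and 0.0969).

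H2A.W, a variant of silent chromatin in plants, held genes that moved in opposite directions in WT. HTA6 measured 15.7, 13.1 and 11.5 CPM in WT control and 6.55, 6.76 and 7.95 in WT heat, and changed by -0.91 ± 0.17 on the log2 scale (edgeR adjusted p = 0.00222). In atcyp18-2 it stood at 12.2 ± 0.456 and 8.74 ± 1.26 CPM (-0.48 ± 0.17, adjusted p = 0.0515), which missed the threshold although the groups did not overlap there either. HTA7 measured 9.6, 11.3 and 13.1 CPM in WT control, 19.4, 19.4 and 17.5 in WT heat, 9.63, 9.78 and 12.6 in atcyp18-2 control and 25.2, 17.6 and 16.5 in atcyp18-2 heat. Every heated library was above every control. The log2 fold change of HTA7 was 0.73 ± 0.19 in WT (adjusted p = 0.0157) and 0.89 ± 0.19 in atcyp18-2 (adjusted p = 0.0039), but with library totals it was -0.02 in WT and 0.13 in atcyp18-2, where the calls ended. The WT call also ended without WT control replicate 1 (0.62, adjusted p = 0.0608) or WT heat replicate 2 (0.70, adjusted p = 0.0523). HTA12, the remaining H2A.W gene, was at -0.11 ± 0.45 in WT and -0.36 ± 0.49 in atcyp18-2, not called. Reads of HTA6 numbered 87.7 to 164 for every 100 of HTA7 in the 6 control libraries and 32.9 to 57.4 in the 6 heated ones, with no overlap.

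H2B pairs with H2A in the nucleosome, and 8 of its 11 genes were fitted. HTB1 fell in both genotypes. It measured 9.74, 11.3 and 9.69 CPM in WT control, 6.82, 6.0 and 7.44 in WT heat, 10.2, 8.35 and 10.2 in atcyp18-2 control and 4.11, 3.77 and 4.40 in atcyp18-2 heat. Heated libraries lay below controls in both genotypes, and the heated mutant libraries below the heated WT ones. The log2 fold change was -0.60 ± 0.17 in WT (edgeR adjusted p = 0.0212) and -1.23 ± 0.18 in atcyp18-2 (adjusted p = 0.000202). In WT the call ended without WT control replicate 2, WT heat replicate 1 or WT heat replicate 2 (-0.60 to -0.51, adjusted p = 0.0582 to 0.0963). HTB4 was not called, at 0.11 ± 0.20 in WT and 0.41 ± 0.20 in atcyp18-2 (adjusted p = 0.718 and 0.127). HTB1 had 24.6 to 28.7 reads for every 100 of HTB4 in WT control, 14.8 to 17.3 in WT heat, 24.6 to 31.0 in atcyp18-2 control and 6.07 to 10.6 in atcyp18-2 heat.

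AT3G53650, another H2B gene, rose in WT, though on few reads. It had 20, 28 and 10 reads in WT control and 24, 20 and 65 in WT heat, that is 1.42, 1.75 and 0.978 CPM against 3.34, 3.15 and 5.52 CPM. The heated libraries were all above the controls in CPM, replicate 3 most of all. The log2 fold change was 1.53 ± 0.37 (edgeR adjusted p = 0.00903), and it was 0.81 without a call under library totals. In atcyp18-2 the value was 0.34 ± 0.40 (adjusted p = 0.555). None of the 5 remaining fitted H2B genes was called, and their log2 fold changes ran from -1.33 to 0.31 in WT and from -1.40 to 0.00 in atcyp18-2.

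**Figure D3:**
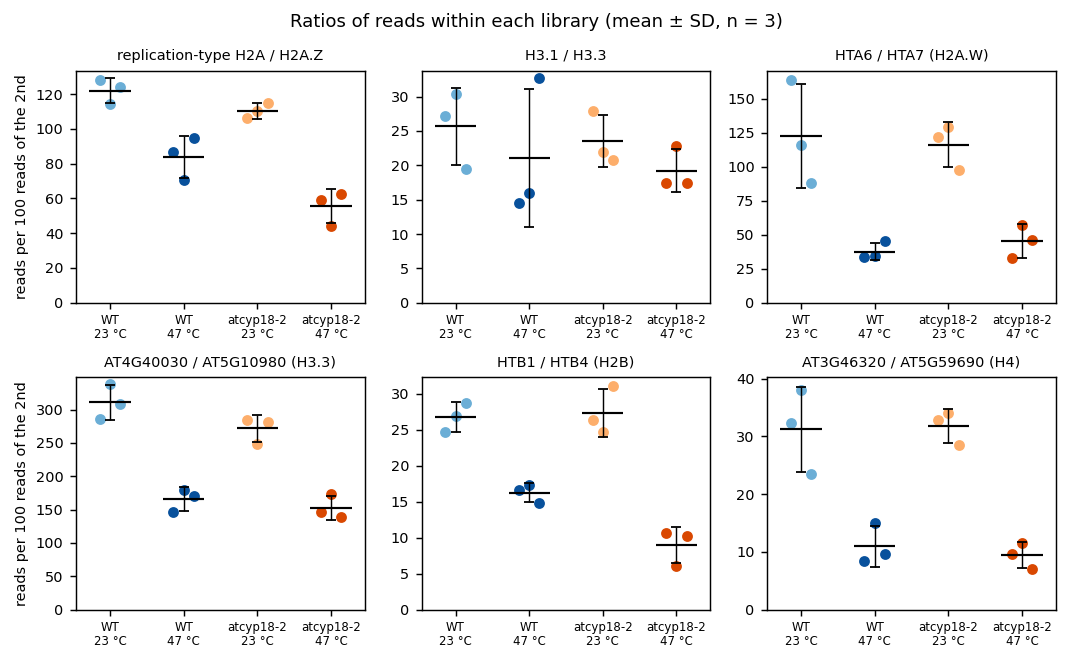
Reads of a gene or gene group for every 100 reads of another in the same library, by group, with black lines for the mean and bars for ± SD (n = 3). Apart from H3.1 to H3.3, each ratio is lower in every heated library than in every control of its genotype, as for HTB1 to HTB4 with 14.8 to 17.3 in WT heat and 24.6 to 28.7 in WT control.

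H4 is encoded by 8 genes that all gave reads, and they encode the same protein. AT3G46320 fell in both genotypes. It measured 5.41, 6.45 and 6.93 CPM in WT control, 2.94, 4.80 and 2.34 in WT heat, 5.79, 6.93 and 6.43 in atcyp18-2 control and 3.62, 2.95 and 2.51 in atcyp18-2 heat. Heated libraries did not overlap controls in either genotype. Its response on the log2 scale was -0.93 ± 0.25 in WT (edgeR adjusted p = 0.019) and -1.08 ± 0.26 in atcyp18-2 (adjusted p = 0.00715). The WT call ended without WT control replicate 2, WT heat replicate 1 or WT heat replicate 3 (-0.90 to -0.69, adjusted p = 0.0579 to 0.0779).

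The other H4 genes ranged from lower to higher. AT3G53730 was called lower in WT (-0.91 ± 0.31, edgeR adjusted p = 0.0474), and that call ended without 8 of the 12 libraries, namely WT control replicate 1 or 2, WT heat replicate 1 or 2, any atcyp18-2 control or atcyp18-2 heat replicate 3 (-0.92 to -0.68, adjusted p = 0.0528 to 0.164). AT3G45930 was called lower in atcyp18-2 (-1.07 ± 0.27, adjusted p = 0.00863) and missed the threshold in WT (-0.75 ± 0.25, adjusted p = 0.0504). AT5G59690 lay above 0 at 0.50 ± 0.24 in WT and 0.64 ± 0.24 in atcyp18-2 without a call (adjusted p = 0.153 and 0.0547), and below 0 with library totals, at -0.24 and -0.13. Reads of AT3G46320 numbered 23.4 to 38.0 for every 100 of AT5G59690 in the 6 controls and 7.08 to 15.0 in the 6 heated libraries. HIS4, AT1G07660, AT5G59970 and AT1G07820 were not called in either genotype.

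Among the 5 genes that are not core or linker histones, AT3G25590 fell in WT from 52, 57 and 30 reads in control to 6, 5 and 18 after heat (log2 fold change -1.46 ± 0.39, edgeR adjusted p = 0.0172). This call ended without WT control replicate 1 or 2 or WT heat replicate 1 or 2 (-1.40 to -1.33, adjusted p = 0.053 to 0.0682). In atcyp18-2 its value was -0.50 ± 0.39 (adjusted p = 0.368). HUB2 was at 0.52 ± 0.50 and 0.84 ± 0.50, not called. HUB1 was at -0.25 ± 0.20 in WT and 0.01 ± 0.21 in atcyp18-2, not called (adjusted p = 0.419 and 0.972). Leaving these genes out, 9 of 38 fitted core histones were called lower and 3 higher in WT, and 9 lower and 1 higher in atcyp18-2.

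The linker histone genes AT1G06760 and AT2G30620 escaped the search because the table describes them by their winged-helix domain, although it gives both the KEGG ortholog of H1. Both were called lower in both genotypes. AT1G06760 went from 37.5 ± 2.97 to 20.2 ± 4.88 CPM in WT (log2 fold change -0.89 ± 0.19, edgeR adjusted p = 0.0044) and AT2G30620 from 41.9 ± 5.30 to 20.8 ± 4.93. In atcyp18-2 they went from 37.6 ± 6.91 to 17.1 ± 1.45 and from 39.7 ± 3.15 to 17.6 ± 4.46 CPM.

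Taken as a sum over all 49 genes, histone transcripts came to 599 ± 32.9 CPM in WT control, 553 ± 15.4 in WT heat, 590 ± 29.5 in atcyp18-2 control and 513 ± 37.3 in atcyp18-2 heat (SD, n = 3). In CPM of nuclear genes alone, without TMM, the sum was 1938 to 2267 in the 6 controls and 1166 to 1560 in the 6 heated libraries. That scale does not set the typical gene equal, and the change of the typical gene on it was not computed. The size of this fall is therefore not relative to the typical gene of the leaf. Control and heat did not overlap on either scale in either genotype. No test was made on these sums.

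The mutant and WT were then compared with each other, first without heat and then after it. Without heat no histone gene was called by edgeR, none had an unadjusted p below 0.05, and DESeq2 called none either. The background of calls over all genes was 0.024% in edgeR, and DESeq2 called 0.0781% higher and 0.0361% lower. In 1 of the 41 genes all mutant libraries lay below all WT libraries, and in none above, beside 3.01% and 3.67% of all genes. Log2 fold changes of the mutant against WT ran from -0.48 to 0.36, with a median of -0.03 beside 0.01 over all genes.

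After heat 8 of the 41 fitted histone genes were lower in every atcyp18-2 library than in any WT library, and none was higher in all. Over all 16636 genes 6.85% were apart in that direction and 8% in the other. None of the 41 was called by edgeR (background 0.222% in both directions), and 8 had an unadjusted p below 0.05 there, beside 10.5% of all genes. These were not the same 8 genes. They included HIS4, higher in the mutant with overlapping groups (1.05 ± 0.46, edgeR unadjusted p = 0.0392), while the rest were lower. HTA13, which was apart, was not among them (edgeR unadjusted p = 0.063). DESeq2 called 1, AT4G40030 (-0.50 ± 0.15, adjusted p = 0.0471), and of all genes it called 0.445% lower and 0.824% higher. The median log2 fold change was -0.12, beside 0.01 over all genes.

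The histone genes apart after heat came from several families. HTB1 stood at 6.75 ± 0.722 CPM in WT heat and 4.09 ± 0.313 in atcyp18-2 heat (log2 fold change -0.73 ± 0.18, edgeR adjusted p = 0.146). AT4G40030 stood at 55.3 ± 2.76 and 38.8 ± 2.96 CPM (-0.51 ± 0.14, adjusted p = 0.185), and HTA3 at 8.36 ± 1.01 and 5.0 ± 1.37 (-0.76 ± 0.24, adjusted p = 0.238). The others were the H2B gene AT3G53650, the H3.3 gene AT5G10980, the H3.1 gene AT5G10390, the H2A.X gene HTA5 and the replication-type H2A gene HTA13, at log2 fold changes of -1.07, -0.40, -1.09, -0.37 and -0.77. With the psbA share of each library as a covariate, calls over all genes went up to 2.48% lower and 3.74% higher, and 5 of the histone genes passed the threshold in edgeR, namely HTB1 (-0.75, adjusted p = 0.0197), HTA3 (-0.78, adjusted p = 0.0322), HTA13 (-0.83, adjusted p = 0.0346), AT3G53650 (-1.10, adjusted p = 0.0327) and AT4G40030 (-0.52, adjusted p = 0.00659).

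**Figure D4:**
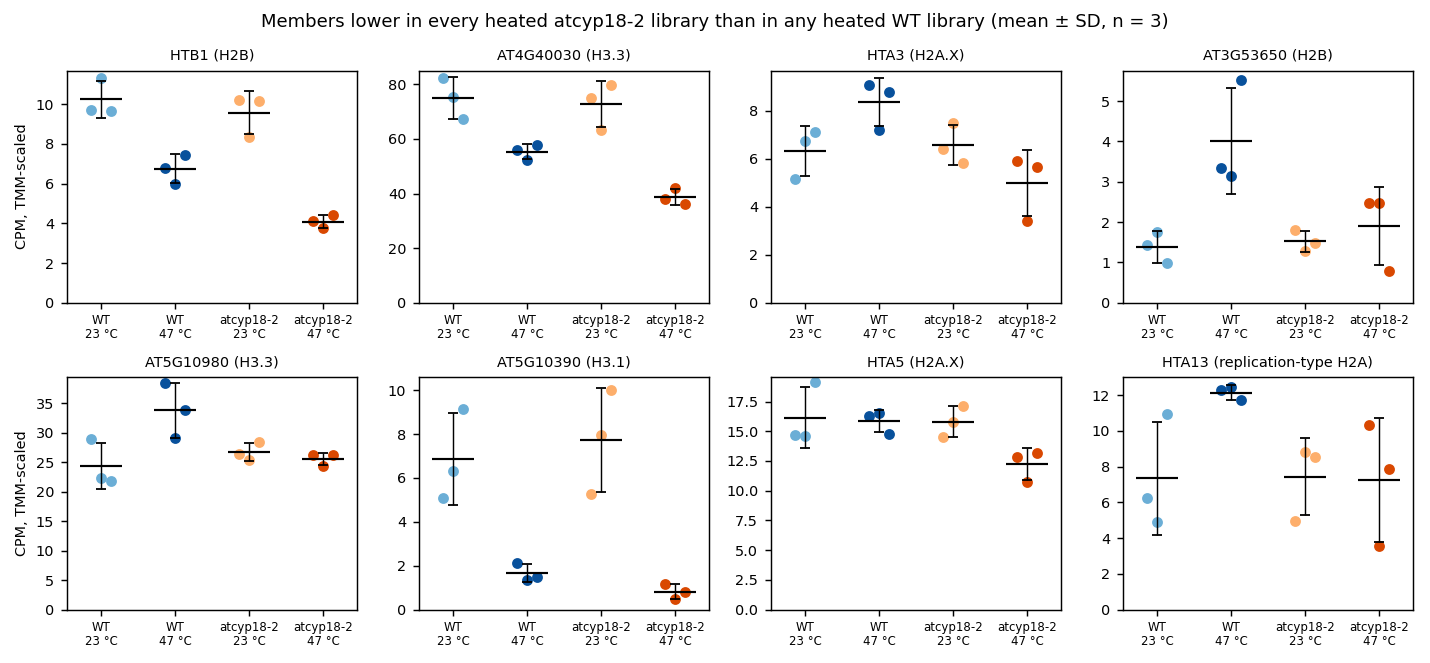
CPM (TMM-scaled) by library and group for the 8 histone genes whose heated atcyp18-2 libraries all lie below the heated WT libraries, with black lines for the mean and bars for ± SD (n = 3). In the groups without heat WT and mutant overlap for all 8 genes, and none of the 8 differences after heat was called by edgeR in the fit without covariates.

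The heat response itself was compared between genotypes as an interaction. No histone gene was called by edgeR (background 0%) or by DESeq2 (background 0.0481% higher and 0.0481% lower). In edgeR 6 had an unadjusted p below 0.05, beside 5.48% of all genes. The values of the difference, mutant minus WT, were -0.63 ± 0.24 for HTB1, -0.82 ± 0.32 for HTA3, -0.54 ± 0.22 for AT5G10980, -0.46 ± 0.20 for AT4G40030, -1.27 ± 0.54 for AT5G10390 and -1.19 ± 0.54 for AT3G53650 (adjusted p = 0.902 to 0.907). A deeper fall or a missing rise in the mutant is thus not established for any of them. The median over the 41 genes was -0.10, beside 0.00 over all genes.

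The libraries also parted within groups by their histone transcripts, along the component and the psbA share described above. In 9 of the 41 fitted genes the libraries with a negative score lay above the others in all 4 groups, and in 10 they lay below. Over all 16636 genes this held for 18.3% and 19.9%, so the shares among histone genes are close to the background. The former included 6 of the 8 fitted H2B genes, and the latter all 4 replication-type H2A genes and 2 of the 3 H2A.Z genes. HTB2 had 152, 187 and 36 reads in WT control, 12, 10 and 71 in WT heat, 159, 54 and 63 in atcyp18-2 control and 7, 46 and 12 in atcyp18-2 heat. Its mean CPM was 3.29, 3.55, 2.59 and 3.3 times as high in the libraries with a negative score in these 4 groups, in this order. The heat response of HTB2 was -1.33 ± 0.63 in WT and -1.20 ± 0.66 in atcyp18-2, not called (edgeR adjusted p = 0.151 and 0.186). The negative scores numbered 2 of 3 libraries in WT control and 1 of 3 in the other groups. With the sign of the score as a block, 17 histone genes were called lower and 10 higher in WT, and 19 lower and 8 higher in atcyp18-2. That fit called 20.4% of all genes lower and 21.7% higher in WT, and 25.0% and 26.2% in atcyp18-2. These genes were picked because they followed the component, so no test was made, and the part of the component in the heat response of single genes was not tested.

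**Figure D5:**
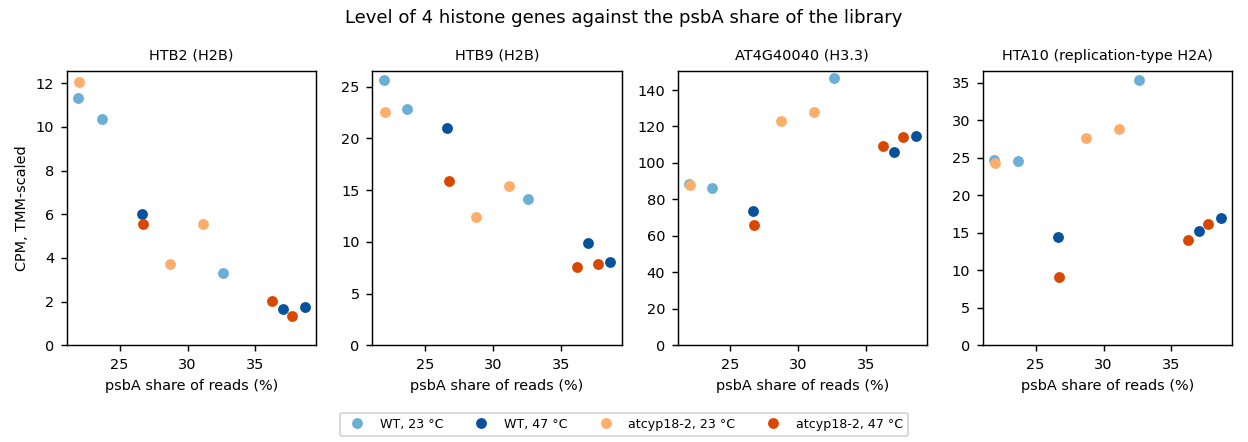
CPM (TMM-scaled) of 4 histone genes against the share of psbA in the reads of each library (%), coloured by group. Within each group HTB2 and HTB9 are higher and AT4G40040 and HTA10 lower in the libraries with a psbA share of 21.96 to 26.74%.

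Genes that work with histones were read from lists chosen with earlier results known. Their counts stand beside the 10.3% of all genes called lower in WT and 15.3% in atcyp18-2. Of 13 histone chaperones 3 were called lower in WT and 2 in atcyp18-2, the latter a share near that background. FAS1, a subunit of the chaperone CAF-1 that loads H3.1 and H4 behind the replication fork, changed by -1.24 ± 0.27 in WT (edgeR adjusted p = 0.00591) and -2.11 ± 0.32 in atcyp18-2 (adjusted p = 0.000307). FAS2, another subunit of CAF-1, changed by -1.30 ± 0.38 and -1.34 ± 0.40 (adjusted p = 0.0243 and 0.0213). Of 9 genes for the exchange of H2A.Z by the SWR1 and INO80 complexes 2 were called lower in each genotype. PIE1, the ATPase of SWR1, changed by -1.0 ± 0.18 and -0.90 ± 0.18 (adjusted p = 0.00154 and 0.00241), and YAF9A by -2.11 ± 0.46 and -1.46 ± 0.47 (adjusted p = 0.0054 and 0.0298). No gene of these lists was called higher.

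Genes of the S phase and of mitosis were lower after heat in many cases. Of 13 DNA replication genes 7 were called lower in WT (median log2 fold change -0.87) and 11 in atcyp18-2 (median -1.57), with none higher. CDT1A, which licenses origins, fell by 2.15 on the log2 scale in WT (edgeR adjusted p = 0.00233), and RNR1, a subunit of ribonucleotide reductase, by 0.87 (adjusted p = 0.00381). In atcyp18-2 RNR1 fell by 1.57 (adjusted p = 4.33e-05) and the helicase subunit MCM5 by 1.69 (adjusted p = 0.000362). Of 13 mitosis genes 9 were called lower in each genotype, at medians of -0.90 and -1.54. The cyclins CYCA1;1 and CYCB1;2 changed by -2.03 ± 0.33 and -1.29 ± 0.23 in WT and by -3.10 ± 0.39 and -2.42 ± 0.26 in atcyp18-2. Among 4 E2F and RBR regulators RBR1 alone was called, in atcyp18-2 (-0.44 ± 0.14, edgeR adjusted p = 0.0336) and not in WT (-0.20 ± 0.14, adjusted p = 0.341). E2FA was at -0.96 ± 0.46 in WT and -1.01 ± 0.52 in atcyp18-2 (edgeR adjusted p = 0.154 and 0.156).

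Markers of other cells in the tissue were read beside these. Of the 4 shoot meristem markers (STM, KNAT1, WUS and CLV3) the summed level was 2.57 to 3.79 CPM in WT control, 1.80 to 2.81 in WT heat, 3.08 to 4.48 in atcyp18-2 control and 2.36 to 4.28 in atcyp18-2 heat. WUS and CLV3 had 0 reads in both WT groups, and KNAT1 was called lower in both genotypes (-2.63 ± 0.45 and -1.92 ± 0.41, edgeR adjusted p = 0.000986 and 0.00303). STM, the other fitted marker, was at 0.23 ± 0.34 and 0.10 ± 0.34, not called (adjusted p = 0.67 and 0.848). The 3 leaf mesophyll markers summed to 9810 to 17400 CPM over the 12 libraries and none was called, and the 4 guard cell markers summed to 6.59 to 10.5 CPM in controls and 5.55 to 6.94 after heat. Of the guard cell markers KAT1 was called lower in WT (-0.89 ± 0.30, adjusted p = 0.0439). The 2 root markers summed to 21.2 to 53.8 CPM in controls and 9.49 to 21.0 after heat, and PYK10 was called lower in both genotypes (-1.44 and -1.04). Of the 3 pollen and sperm markers only GEX2 had reads, at 1.08 to 1.78 CPM in controls and 0.354 to 1.2 after heat, and it was called lower in atcyp18-2 (-1.61, adjusted p = 0.00945). The part of dividing cells or of other cell types in the histone results was not tested.

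The authors' deposited table for heat in WT listed 1020 genes. Among them was 1 of the 49, AT5G10390, with a log2 fold change of -2.05. The authors' deposited table for heat in the mutant listed 1649 genes. Among them were 3 of the 49, namely AT5G10390 (-3.27), HTB1 (-1.23) and HTA10 (-1.05). None of the 49 was listed in the authors' deposited tables of the mutant against WT, which held only 7 genes without heat and 4 after it.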

How the data were processed

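Leaf RNA of 12 samples was turned into cDNA libraries and sequenced, and the labels' protocols do not say whether poly(A) RNA was selected. The authors deposited a table of counts per transcript with 51792 rows, whose values start at 1, with no row at that value throughout, so that 1 read appears to have been added to each. Printed read numbers have it subtracted, while CPM include it. HTSeq and DESeq are named, without version, in the submitters' processing notes, the aligner is not given in the sources used here, nor is the genome build, and the annotation came from Phytozome per the file headers. The authors' deposited tables of comparisons hold log2 fold changes and adjusted p-values. The 12 columns of normalized values in the count table were not used.

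Each of 23174 genes was represented by its annotated transcript with most reads, as 13 of the 49 histone genes have several. Gene names came from RefSeq's gene table of TAIR10.1, which held all 49. Histone genes are short, and copies of H3.1, H3.3 and H4 are nearly identical, so reads may be split or lost between copies, and since the strand used in counting is not stated, antisense reads cannot be told apart. Counts were fitted with edgeR 4.0.16 in R 4.3.3 (filterByExpr, TMM, glmQLFit and glmQLFTest), with 1 coefficient for each of 4 groups over 12 libraries and 5 contrasts, and Benjamini-Hochberg adjustment over 16636 genes. The steps were tested on simulated data. Errors of log2 fold changes are standard errors, and the counting error of genes with few reads limits their precision.

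The genes named with values were the H1, H2A.Z, H3.3 and H2A.X genes, every called histone gene, the gene with the highest mean in each other family, and the 2 genes with the lowest adjusted p in each other list. Genes named beyond this rule, such as HTB2, HTA13 and AT3G27360, and the 7 pairs of genes in ratios were chosen after their values were seen. The histone genes and all lists were chosen with earlier results of these data known. Alternatives were DESeq2 1.42.0, other scaling, filters and thresholds, leaving out each library, a replicate block and the psbA share. The fits by the sign of the component score and the counts of core histones alone were added after seeing the data.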

Additional observations from a re-analysis of the deposited data

How the results depend on the processing

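Of 23 calls of single histone genes under heat, 11 kept their call and direction at the threshold of 0.05 in 23 alternatives that leave out the subsets by score, namely AT5G10390, HTA10 and HTA6 in WT and AT5G10390, AT5G10400, AT5G65360, AT4G40030, AT3G46320, AT3G45930, HTA10 and HTB1 in atcyp18-2. At an adjusted p below 0.01 HTA10 in WT (0.0103) and AT5G65360 in atcyp18-2 (0.0106) were not called, which leaves 9. Counts of calls in WT were 3 higher and 10 lower, and moved to 0 and 22 with library totals and to 10 and 17 with the sign of the component score as a block. The higher count in WT was 5 with DESeq2, 7 with the psbA share as a covariate and 1 at an adjusted p below 0.01. The lower count was 5 with only the samples of the contrast and 2 at an adjusted p below 0.01. The share of all genes at the threshold of 0.01 is not given, so the counts there stand without a background. Of all genes DESeq2 called 13.7% higher and the fit with the psbA share 20.2% higher. The fit with only the samples of the contrast called 8.41% of all genes lower. Leaving out single libraries gave 2 to 6 higher and 3 to 12 lower, beside 9.54 to 13.5% and 6.13 to 10.6% of all genes. Counts in atcyp18-2 were 1 higher and 9 lower, and moved to 0 and 23 with library totals and to 8 and 19 with the score block. The higher count there was 2 with DESeq2 and with only the samples of the contrast, 5 with the psbA share and in the libraries of positive score, where 14 were lower, and 3 in those of negative score. Leaving out single libraries gave 1 to 3 higher and 8 to 12 lower, beside 13.4 to 17.3% and 11.3 to 16.5% of all genes. After heat, the count lower in the mutant than in WT was 0 in the main setting and whichever library was left out. It was 1 with DESeq2, 5 with the psbA share and 5 with the score block, beside 0.445%, 2.48% and 3.08% of all genes. The cause of these shifts was not tested, and the score came from these same data. The subset of negative score held 1 library in each group but WT control, and that of positive score 1 WT control. Counts of calls in these subsets are therefore no measure of stability. Those printed above for heat in atcyp18-2 stand without a background, and those for heat in WT are not given. With library totals AT5G10980 (-0.30) and HTA7 (-0.02) changed sign in WT and HTA11 (-0.71) in atcyp18-2. Correlations of deviations ran from -0.65 to 0.39 between libraries of the same number and from -0.66 to 0.66 between those of different numbers. With 3 libraries per group and the common component in them, this cannot tell whether replicate numbers pair the libraries. The replicate block gave 2 higher and 7 lower in WT, beside 10.9% and 7.37% of all genes. In atcyp18-2 it gave 1 and 9, beside 14.4% and 12.6%. Depth limits the genes with few reads. HTR12 was not called in the main fit but was called lower with library totals (edgeR adjusted p = 0.0236 in WT and 0.0101 in atcyp18-2). The 8 genes that were not fitted had no test in the main fit, so whether they changed is not known.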
